A study of Olea europaea with 6 samples.

Results

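Mature leaves of the olive tree (Olea europaea cv. Ayvalık) were compared between an "on" year, when the tree carries a heavy crop, and an "off" year, when it carries little. The comparison used 3 of the 11 arrays of the study, 1 of on-year mature leaves (ON-M) and 2 of off-year mature leaves (OFF-M), and these were the arrays that the sample labels give as mature leaves. The other arrays were 2 each of unripe fruits (UF), ripe fruits (RF), and juvenile leaves of the on year (ON-J) and the off year (OFF-J), and the 4 juvenile arrays are used below as the nearest comparison. All were one-colour oligonucleotide arrays, hybridised with Cy3-labelled cDNA made from total RNA, on which a probe set stands for an olive EST (a partial cDNA sequence) or a poplar gene model. The differences below concern the 5543 olive probe sets out of the 54615 tested.

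Both mature leaf samples were collected in November, the on-year leaves in the year before the off-year leaves, and the methods name 2 trees growing side by side. Bearing year, calendar year and tree therefore cannot be told apart here. The on-year side is a single array, because a second ON-M array was not analysed here, so it has no spread of its own, and the fit borrowed the spread of the paired arrays for it. The methods state 2 biological replicates for each sample, but nothing in the labels says that the 2 OFF-M arrays came from separate trees. The p-values below may therefore reflect technical spread alone. As bulk RNA was hybridised, fewer cells of a type and less RNA per cell cannot be told apart.

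Alternate bearing is the alternation of heavy and light crops that many fruit trees show. Mature leaves export sugars to the developing fruits and renew the reserves on which the flowering of the following spring draws, and in the off year there are few fruits to supply. Leaves also produce the cuticle lipids, terpenoids and phenolic compounds, flavonoids among them, that protect the plant from drought, light and pathogens.

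Values are log2 signals after the authors' background subtraction, quantile normalization and summary by the RMA algorithm, so a difference of 1 is a doubling. An EST was called lower or higher at a log2 difference of at least 2 with an adjusted p under 0.05, from limma with Benjamini-Hochberg adjustment over all 54615 probe sets. ON-M was called lower than OFF-M for 63 olive ESTs and higher for 0. The lower calls were 1.14% of the olive probe sets, against 0.126% of all probe sets called lower and 0.0293% called higher. With quantile normalization of the olive probe sets over the leaf arrays, 59 were lower and 8 higher. At an unadjusted p under 0.05 with the same difference, 143 olive ESTs were lower and 2 higher. By the methods' t-test, 88 were lower and 1 higher unadjusted, and 0 in either direction after Benjamini-Hochberg adjustment. With 1 array against 2 that t-test has 1 degree of freedom, so its p-values could hardly pass the adjustment. The 63 differences called by limma ran from -2.08 to -6.42 with a median of -3.09, and 15 of them were at least 16-fold.

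The calls depend on which arrays stand in the fit, because leaving out 1 array of a pair removes that pair from the estimate of the spread. Without OFF-M replicate 1 the count was 27 and without OFF-M replicate 2 it was 32, whereas without either RF array it was 103. Of the 63, 26 were called whichever of the 10 other arrays was left out. The OFF-M arrays themselves lay close together for the called ESTs, with a median gap of 0.13 and a largest gap of 0.41.

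The ON-M array was dimmer over the olive probe sets as a whole. Its median olive signal was 10.66, against 11.34 and 11.40 in OFF-M and 10.80 to 11.43 in the juvenile leaves. The random control probe set lay at 5.20 in ON-M and at 5.24 and 5.25 in OFF-M. The leaf label could be checked with ESTs that the other arrays set apart. The 90 ESTs that both juvenile leaf groups had at least 3 above both fruit groups stood at a median of 12.53 in ON-M and 13.21 in OFF-M, against 8.07 in UF and 6.55 in RF. Likewise GO243351_1, an EST at 4.93 in ripe fruit, was at 12.69 in ON-M and at 13.09 in both OFF-M arrays. The 31 ESTs set apart by ripe fruit had medians of 6.47 in ON-M and 7.75 in OFF-M, against 14.76 in RF.

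The year difference also varied with the brightness of the EST. ESTs were binned by their mean over the 4 juvenile arrays, which are not part of the comparison. The median ON-M minus OFF-M difference was -0.26 over all olive ESTs, -0.08 for the 968 ESTs with a juvenile mean under 6, -1.03 for the 609 ESTs between 8 and 10, and -0.04 for the 710 ESTs above 14. It was -0.24 against the first OFF-M array alone and -0.29 against the second. In the bin from 8 to 10 the juvenile leaves differed the other way, with a median ON-J minus OFF-J of 0.80.

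**Figure D1:**
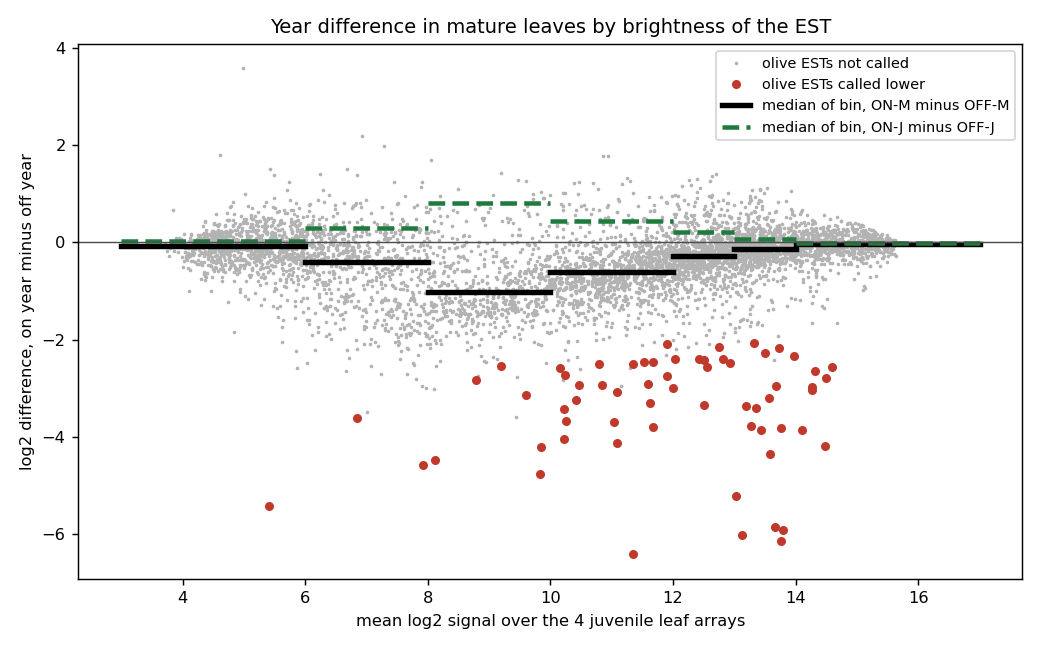
The ON-M minus OFF-M log2 difference of each olive EST (vertical axis) is plotted against its mean log2 signal over the 4 juvenile leaf arrays (horizontal axis). Black bars are the medians of the bins for mature leaves and green dashed bars those for juvenile leaves (ON-J minus OFF-J), which lie furthest apart between 8 and 10, at -1.03 and 0.80, and the 63 called ESTs (red) lie below -2.

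Centring each array on its olive median adds 0.71 to each mature difference, which turns the median over olive ESTs to 0.44 and that of the 90 leaf ESTs from -0.31 to 0.40. On that scale 30 olive ESTs were called lower, 0.541% of the olive probe sets, and 2 higher, 0.0361%. All 30 were among the 63. When the brightness trend of each leaf array was removed with a lowess curve in place of centring, 48 of the 63 were still called lower. None of the 63 differences changed sign under any of the alternatives run.

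The largest difference belonged to FL684392_1, an EST from a fruitlet library with no known process. It gave 5.43 in ON-M, against 11.91 and 11.79 in OFF-M. In the juvenile leaves it gave 11.45 and 11.76 in ON-J and 11.29 and 10.92 in OFF-J. The ON-M array thus stood alone near the random control while the other leaf arrays lay within about a doubling of each other. The log2 difference was -6.42 (standard error 0.30, adjusted p = 0.000116), which is 85.6-fold.

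A group of 7 ESTs, all annotated only with cellular amino acid metabolism, showed the same profile at a higher level. Amino acid metabolism covers the building and breakdown of the units of proteins, and 8 of the 16 ESTs with such terms were called. FL683857_1 was at 8.04 in ON-M and at 14.11 and 14.27 in OFF-M. Its juvenile values were 13.51 and 13.91 in ON-J and 13.84 and 13.81 in OFF-J. GO245805_1 was at 7.29 in ON-M and at 13.31 and 13.34 in OFF-M, and FL683748_1 was at 8.15 against 13.97 and 14.15. For FL683833_1 the values were 8.30 in ON-M and 14.07 and 14.23 in OFF-M. In each of them the 6 other leaf arrays lay together and ON-M lay far below. The log2 differences of these 4 ESTs were -6.15, -6.03, -5.91 and -5.85, each with an adjusted p of 0.000116 and a standard error of at most 0.29.

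The rest of the group fell by less. GO243808_1 was at 8.07 in ON-M against 13.37 and 13.23 in OFF-M, GO245050_1 at 9.76 against 13.99 and 14.26, and GO244502_1 at 10.65 against 14.35 and 14.56. Their differences were -5.23, -4.36 and -3.81, with adjusted p of 0.000469, 0.000719 and 0.00147. All 7 stayed called on the centred scale and with any 1 of the 10 arrays left out. Their year difference in juvenile leaves was between -0.36 and 0.15. Over the 10 arrays other than ON-M the 7 ESTs moved together, with a median pairwise Pearson r of 0.93 and a lowest of 0.66, values that rest on shared arrays. Whether they are ESTs of 1 transcript was not tested, and until that is known they are not 7 separate genes.

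**Figure D2:**
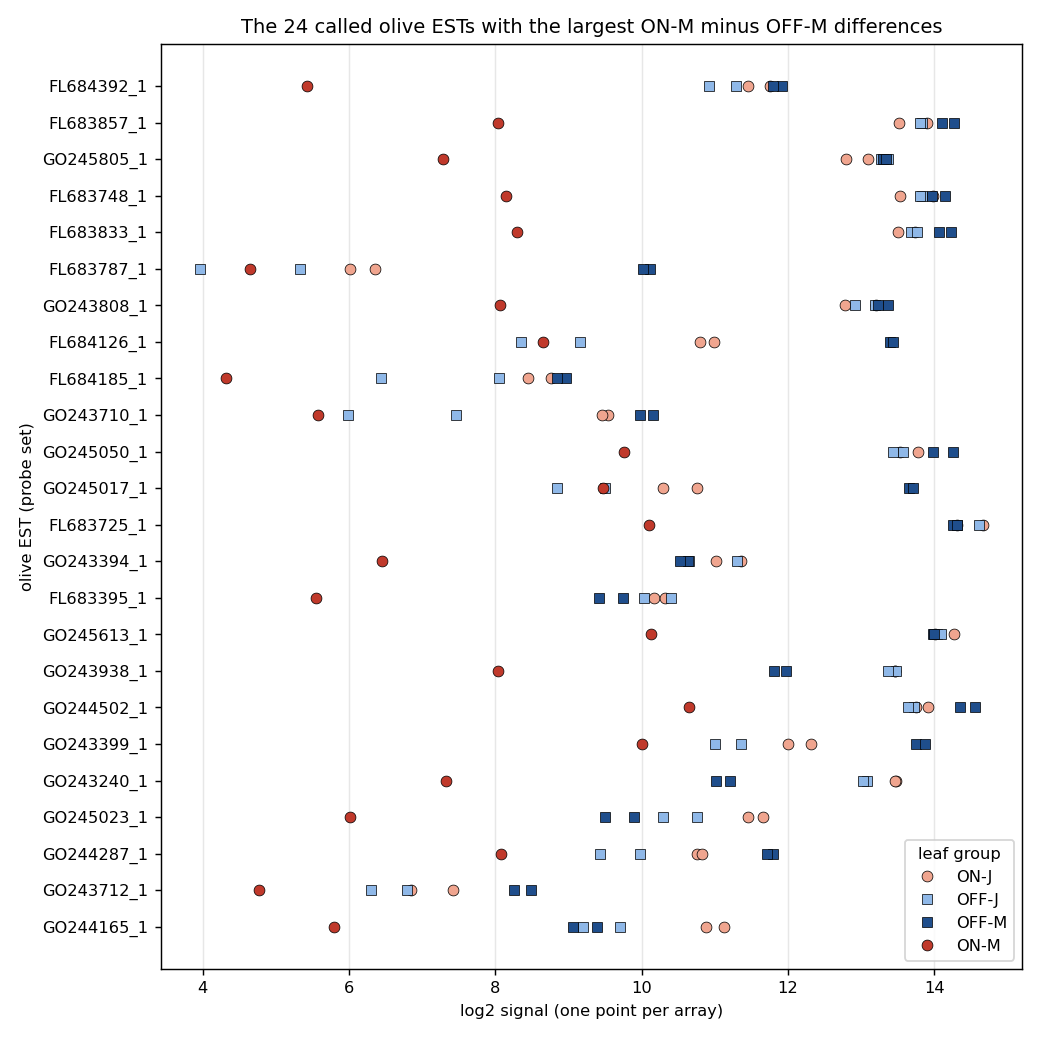
Log2 signal of each leaf array (horizontal axis, 1 point per array) for the 24 called ESTs with the largest ON-M minus OFF-M differences (vertical axis). ON-M (dark red) lies to the left of both OFF-M arrays (dark blue) in every row, and in FL683787_1, FL684126_1 and GO245017_1 an OFF-J array lies further to the left.

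The 63 ESTs fell into different profiles once the juvenile leaves were set beside them. In 60 of them ON-M was the lowest of the 7 leaf arrays. In 34, both OFF-M arrays lay below all 4 juvenile arrays, by under 1 in 16 of them, and ON-M lay lower still. In 18, both OFF-M arrays lay above all juvenile arrays, and in the remaining 11 they overlapped them. These positions describe the called ESTs, which were chosen by their OFF-M values, and they were not tested.

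**Figure D3:**
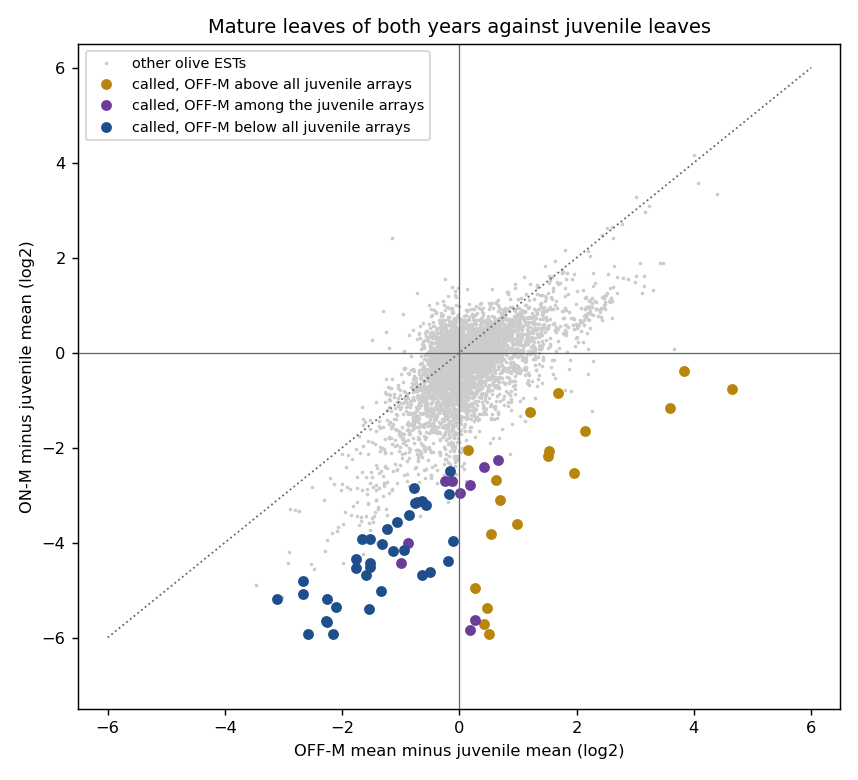
OFF-M mean minus juvenile mean (horizontal axis) and ON-M minus juvenile mean (vertical axis), in log2 units, for each olive EST, with equal levels on the dotted line. The called ESTs lie well below the dotted line, 18 with OFF-M above all juvenile arrays, 34 with OFF-M below them and 11 among them.

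The 3 ESTs in which ON-M was not the lowest leaf array were high in the off-year mature leaves. FL684126_1, annotated with flavonoid biosynthesis, the route to many leaf and fruit pigments, was at 8.65 in ON-M and at 13.40 and 13.44 in OFF-M. Its juvenile values were 10.79 and 10.99 for ON-J and 9.16 and 8.36 for OFF-J. The ON-M array lay between the OFF-J arrays, and both OFF-M arrays stood above every other leaf array. The difference was -4.76 (standard error 0.34, adjusted p = 0.00118), a 27.2-fold lower signal. Its year difference in juvenile leaves was 2.13, in the opposite direction and not called (adjusted p = 0.228).

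FL683787_1, of unknown process, was at 4.65 in ON-M and at 10.12 and 10.01 in OFF-M. The juvenile arrays gave 6.35 and 6.01 in ON-J and 5.33 and 3.96 in OFF-J. Both OFF-M arrays stood far above the other leaf arrays, and the ON-M value was below the random control. The difference was -5.41 (standard error 0.49, adjusted p = 0.0042). GO245017_1, annotated with lipid transport, was at 9.47 in ON-M and at 13.65 and 13.71 in OFF-M, while the juvenile arrays lay between 8.84 and 10.76. Its difference was -4.21 (standard error 0.38, adjusted p = 0.0042).

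Some of these ESTs were bright in ripe fruit. Of the 31 ESTs at least 3 higher in RF than in unripe fruit and in both juvenile groups, 6 were called lower in ON-M, against 1.14% of all olive ESTs. The leaf list held 8 calls among its 90 ESTs, and 14 were called among 436 ESTs at least 3 lower in RF than in unripe fruit and in both juvenile groups. The 6 were FL683787_1, FL684126_1, FL684185_1, GO243399_1, GO243712_1 and GO243553_1. FL684185_1 was at 4.32 in ON-M, also below the random control, against 8.96 and 8.84 in OFF-M, and its call was kept in only 4 of the 10 fits that left out an array. GO243399_1, annotated with biosynthesis, was at 10.01 against 13.76 and 13.87, and RF had 15.21. The list as a whole had a median difference of -0.90, against -0.26 over all olive ESTs. Of the 8 ESTs that the study picked out for ripe fruit, FL683787_1 was the only one called, and the brightest in RF, FL684062_1, gave 6.47 in ON-M and 7.24 and 7.67 in OFF-M.

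The process names come from the study's own lists, which hold 531 of the olive ESTs. Each of the 63 called ESTs is in the list that the study drew from this same comparison, and the 5012 ESTs outside all lists held 0 of the calls. The annotated ESTs had a median difference of -1.48, and 97.4% of them were lower in ON-M than in both OFF-M arrays, against 65.3% of all olive ESTs. The 381 of them outside the list for this comparison had a median of -1.35. Their lowest difference was -1.99, short of the threshold of 2, so none of them could be called. They come from the study's lists between leaf stages, which use the same mature leaf groups. A process is therefore best read against the annotated ESTs, of which 11.9% were called, and the counts below are not independent evidence of a direction.

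ESTs of fatty acid metabolism, which builds and degrades the chains of membrane, storage and surface lipids, numbered 14, and 4 were called. GO243991_1 was at 6.56 in ON-M and at 9.73 and 10.10 in OFF-M, with juvenile arrays at 12.17 or more. GO244094_1 was at 5.07, below the random control, against 8.29 and 8.32, and GO243363_1 at 5.65 against 8.46 and 8.69. All of them carry the same annotation of fatty acid metabolism and oxidation-reduction and had OFF-M below the juvenile arrays and ON-M below OFF-M. Their differences were -3.35, -3.24 and -2.93, with adjusted p of 0.0149, 0.0136 and 0.0411. GO243363_1 was not called after centring (adjusted p = 0.164). GO245033_1, with the same annotation, gave 5.08 in ON-M and 7.67 and 8.14 in OFF-M and missed the threshold (adjusted p = 0.0519), and so did GO244140_1 (difference -2.11, adjusted p = 0.275). The fourth call was that of the cutin EST GO243632_1.

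The cuticle is the waxy, cutin-based layer on the leaf surface, and lipid, cutin and wax terms covered 26 ESTs. Of these 7 were called, among them GO245017_1, given above, whose OFF-M arrays lay above all juvenile arrays. GO243240_1, annotated with lipid metabolism, was at 7.33 in ON-M and at 11.21 and 11.02 in OFF-M. GO245023_1, annotated with cuticle development and transport, was at 6.01 against 9.49 and 9.90. GO243632_1, which carries cutin synthesis and flower development among its terms, was at 8.11 against 10.44 and 10.57. In GO243240_1, GO245023_1 and GO243632_1 the juvenile arrays were higher than either mature group. The differences were -3.78 (adjusted p = 0.000975), -3.69 (adjusted p = 0.00718) and -2.39 (adjusted p = 0.0119), and the last was not called after centring (adjusted p = 0.117).

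Of 6 flavonoid and anthocyanin ESTs, 3 were called, FL684126_1 among them. GO243114_1, annotated with flavonols, a group of pale pigments that absorb ultraviolet light, was at 8.94 in ON-M and at 12.23 and 12.26 in OFF-M. GO243553_1, annotated with anthocyanin synthesis, the red and purple pigments of ripening fruit, was at 8.21 against 10.94 and 11.33. For both, ON-M lay below all 6 other leaf arrays. Their differences were -3.31 (standard error 0.36, adjusted p = 0.00955) and -2.93 (standard error 0.34, adjusted p = 0.0145), and after centring GO243553_1 missed the threshold (adjusted p = 0.0539).

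Terpenoid and chlorophyll terms covered 11 ESTs, of which 3 were called. FL683725_1 was at 10.10 in ON-M and at 14.26 and 14.31 in OFF-M, GO245362_1 at 11.52 against 14.32 in both, and FL684112_1 at 11.69 against 13.85 and 13.89. These ESTs were bright in every leaf array, and their juvenile values ran from 13.61 to 14.67. The differences were -4.19, -2.79 and -2.18 (adjusted p = 0.015, 0.00718 and 0.0359). None of the 3 was called after centring, and FL684112_1 was called in only 2 of the 10 fits that left out an array.

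**Figure D4:**
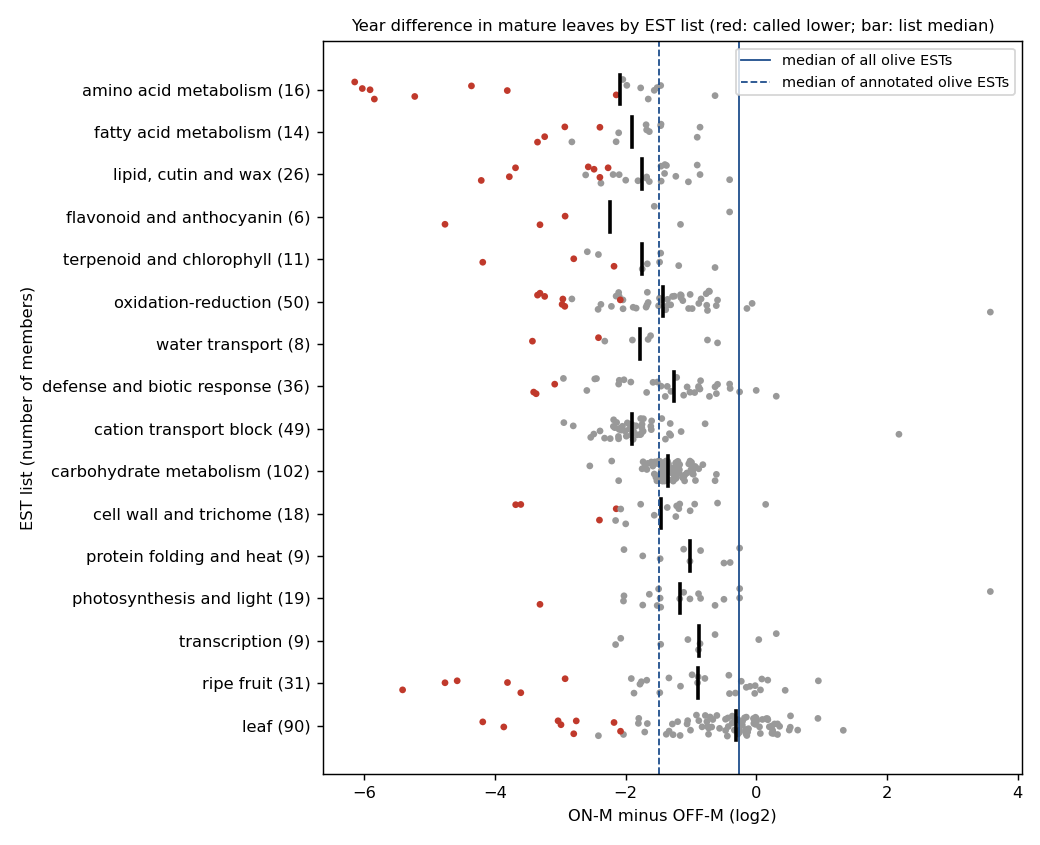
ON-M minus OFF-M log2 difference (horizontal axis) of every EST in 16 lists (vertical axis, number of members in parentheses), with called ESTs in red and black bars for list medians. The list medians lie between -2.24 for flavonoid and anthocyanin and -0.31 for the leaf list (0.40 after centring), and the blue lines mark the medians of all olive ESTs (-0.26, or 0.44 after centring) and of annotated olive ESTs (-1.48).

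Defense terms cover the responses to pathogens and other organisms. Of 36 ESTs of defense and response to other organisms, 3 were called, which is 8.33%, against 11.9% of the annotated ESTs. GO243211_1 was at 7.68 in ON-M and at 11.22 and 10.96 in OFF-M, and GO243814_1 at 7.55 against 10.92 in both. They share 1 annotation and nearly the same values in every leaf group, with juvenile arrays between 12.89 and 13.61. GO246421_1, annotated with salicylic acid signalling, a hormone route of pathogen resistance, was at 6.40 against 9.62 and 9.35. The differences were -3.41, -3.37 and -3.09, with adjusted p of 0.00475, 0.00286 and 0.00739, and all 3 were called after centring. The list had a median of -1.26, above that of the annotated ESTs.

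Water transport is the work of aquaporins, channels in the cell membrane, and 2 of its 8 ESTs were called. GO244165_1 was at 5.80 in ON-M and at 9.39 and 9.07 in OFF-M, and GO244702_1 at 9.37 against 11.67 and 11.89. In both the ON-J arrays were higher than the OFF-M arrays. The differences were -3.43 (adjusted p = 0.0042) and -2.42 (adjusted p = 0.00739), and after centring GO244702_1 was not called (adjusted p = 0.162).

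A block of 49 ESTs with terms of cation transport and homeostasis held 0 calls by limma, with 19 lower at an unadjusted p under 0.05 and a difference of at least 2. Its median was 5.23 in ON-M, close to the random control, and 7.18 in OFF-M. In ON-M 22 of the 49 were below the random control, and the median difference was -1.91. The 97 ESTs annotated only with carbohydrate metabolism also held 0 calls (2 unadjusted). The block's median level was 9.85 for ON-M, 11.16 for OFF-M, 9.61 for ON-J and 8.38 for OFF-J. ON-M was near ON-J and OFF-M was the highest of the leaf groups, though below the 11.89 of ripe fruit. Only 2 of the 97 are in the study's list for this comparison, and the rest come from its lists between leaf stages. Those lists were drawn from the same mature leaf groups, so nothing is read from these positions. The median difference was -1.35, against -1.48 over the annotated ESTs, and -0.64 after centring. Whether the ESTs of either block are of 1 transcript was not tested.

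Cell walls give the leaf its stiffness, and trichomes are its surface hairs. Among 18 ESTs of these terms 4 were called. GO244287_1 was at 8.08 in ON-M and at 11.80 and 11.72 in OFF-M, and GO243712_1 at 4.77, below the random control, against 8.26 and 8.48. For GO244287_1 the study's list of stage differences common to both years gives the process as unknown. GO245145_1, annotated with trichome shape, was at 7.75 against 10.17 and 10.12. In GO244287_1 and GO243712_1 both OFF-M arrays were above all juvenile arrays, and in GO245145_1 they were below them. The differences were -3.68, -3.60 and -2.40 (adjusted p = 0.00402, 0.00516 and 0.0086), and GO245145_1 was not called after centring (adjusted p = 0.138).

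Amine metabolism had 2 ESTs, picked out here after their values were seen because both were called. GO243842_1 was at 11.31 in ON-M and at 14.33 and 14.23 in OFF-M, and GO243358_1 at 10.89 against 13.70 and 14.01. The juvenile arrays were all above 13.4, so that ON-M again stood apart from otherwise even leaf arrays. The differences were -2.97 and -2.96 (adjusted p = 0.00313 and 0.0042). After centring the adjusted p was 0.0502 and 0.0652.

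Hormone terms held 2 calls among 11 ESTs of salicylic and jasmonic acid, of which GO246421_1 is given above, and 1 among 11 of abscisic acid and ethylene, the water transport EST GO244165_1. GO245994_1, annotated with the synthesis of jasmonic acid, a wound hormone, was at 8.33 in ON-M and at 10.83 and 10.92 in OFF-M (difference -2.55, adjusted p = 0.0397). That call was lost in 6 of the 10 fits that left out an array. GO244677_1, annotated with steroid metabolism and the pattern of xylem and phloem, was at 10.09 against an OFF-M mean of 13.13 (difference -3.03, adjusted p = 0.005, and 0.0998 after centring). GO243685_1 (brassinosteroid synthesis), GO243107_1 (abscisic acid signalling) and FN998690_1 (ethylene response) had differences of -2.42, -2.04 and -2.10 and were not called (adjusted p = 0.145, 0.0613 and 0.392). Neither were GO245518_1 and GO245517_1, annotated with secondary cell walls, at -2.15 and -2.08 (adjusted p = 0.392 and 0.317). Of these 5 ESTs, all but FN998690_1 were called in the fit without the RF arrays, at adjusted p of 0.00742 to 0.0291. FL683585_1, annotated with the response to jasmonic acid, gave 10.47 in ON-M and 11.17 and 11.21 in OFF-M (adjusted p = 0.898).

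Protein folding, transcription and protein phosphorylation held 0 calls among 9, 9 and 8 ESTs (1, 2 and 3 unadjusted), with medians of -1.02, -0.89 and -1.30. Photosynthesis and light held 1 call among 19, which was the flavonol EST GO243114_1. By library, 53 of the 3706 ESTs from leaves and fruits (opening GO) were called, 1.43%, and 10 of the 1021 from fruitlets (opening FL), 0.98%. Both shares were near the 1.14% over all olive ESTs. Of the 757 from flowers (opening FN) 0 were called and 5 passed unadjusted, and their median difference was -0.30.

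The 9 ESTs that the study chose for its PCR check included some that both mature groups held at a high level, and 2 of the 9 were called, FL684126_1 above and GO243710_1. The values given here are array values. In the study's PCR, relative to its reference RNA, FL684126 was also lower in ON-M than in OFF-M. In juvenile leaves the PCR put FL684126 lower in ON-J than in OFF-J, opposite to the array. By PCR GO243710 hardly differed between ON-M and OFF-M, and it was higher in ON-J than in OFF-J. The PCR values of the other ESTs were not compared with the arrays. GO245535_1, annotated with the response to karrikins, was at 13.65 in ON-M and at 13.40 and 13.59 in OFF-M, while the juvenile arrays lay between 8.79 and 10.06. GO243651_1, annotated with proteolysis, was at 13.45 against 14.07 and 13.82. For these the ON-M level was close to OFF-M and far above juvenile leaves, with differences of 0.16 and -0.49 (standard errors 0.43 and 0.40), and the second turned to 0.22 after centring. GO245913_1, annotated with carbohydrate metabolism and meristem growth, was at 11.10 against 12.08 and 12.25 and was not called (adjusted p = 0.673). GO243710_1, annotated only as metabolic, was called, at 5.58 in ON-M and 10.16 and 9.97 in OFF-M (difference -4.48, standard error 0.50, adjusted p = 0.0111). GO244999_1 missed the threshold at -2.99 (adjusted p = 0.055), GO245304_1 at -1.43 (adjusted p = 0.26), and FL684399_1 at -0.41 (adjusted p = 1), which turned to 0.29 after centring.

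In the other direction the values were smaller and less even. The largest was that of GO244009_1, annotated with photorespiration and the carbon-fixing cycle, at 7.42 in ON-M and 3.72 and 3.96 in OFF-M. Its juvenile arrays were 6.41 and 3.89 in ON-J and 3.94 and 5.74 in OFF-J, so that arrays of 1 group also lay far apart. The difference was 3.58 (standard error 1.37, adjusted p = 0.683). GO242816_1, of the cation transport block, was at 7.80 against 5.99 and 5.25 and was not called (adjusted p = 0.615). The pair called higher after centring were GO244434_1, at 11.13 against 9.30 and 9.41, and GO246148_1, at 6.16 against 4.31 and 4.40. As deposited their differences were 1.77 and 1.80 (adjusted p = 0.0795 and 0.046), and after centring 2.48 and 2.51 (adjusted p = 0.0329 and 0.0302). Neither EST has a process in the lists, and the OFF-M values of GO246148_1 lay below the random control. GO246095_1, GO243183_1, GO243477_1 and GO245879_1 had differences of 1.41 to 1.77 and were not called (adjusted p of 0.165 to 0.582).

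The same question asked of juvenile leaves gave 0 calls, with 11 olive ESTs at an unadjusted p under 0.05 and a difference of at least 2. The change of the year difference between leaf stages was tested as an interaction, which is the mature difference less the juvenile one. It was called lower for 82 olive ESTs, 1.48% of the olive probe sets, and higher for 1, GO245879_1, which is 0.018%. After centring the split was 33 lower and 8 higher, and with olive quantile normalization 107 lower and 129 higher, so the balance of directions depends on the scaling. The median interaction over olive ESTs was -0.44 as deposited and 0.63 after centring. The interaction contains the mature difference, so nothing is read from its overlap with the ESTs called in mature leaves. Of those 63 ESTs, 60 were among the 82. Without OFF-J replicate 1 the count was 79. It lay between 18 and 32 without OFF-J replicate 2, either UF array, either OFF-M array or either ON-J array, and it was 432 without either RF array. Both FL684126_1 and GO243710_1 had higher array values in ON-J than in OFF-J, but neither juvenile difference was called. The study's PCR, given above, had the opposite juvenile direction for FL684126 and hardly any mature difference for GO243710. For FL684126_1 the interaction was -6.90 (standard error 0.44, adjusted p = 0.00125) and for GO243710_1 it was -7.25 (standard error 0.64, adjusted p = 0.00531). For FL683725_1 it was -4.22 and missed the threshold (adjusted p = 0.054).

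Over all 5543 olive ESTs the year differences of the stages ran in opposite directions, although they share no array. Pearson's r across ESTs was -0.59 and Spearman's rho -0.65, and r was -0.49 with the brightness trends removed. These are correlations across ESTs, which share arrays and brightness and are not independent replicates. A like pattern was present between replicates of 1 group. The dimmer OFF-J array minus the brighter one gave r = 0.51 with the mature year difference, the same in ON-J gave 0.25, in RF 0.13 and in UF 0.02. For the 63 called ESTs, the gap between the OFF-J arrays had a median of -0.14 and a lowest value of -1.62, while their mature year difference had a median of -3.09. The part of this shared pattern in the year difference was not tested.

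**Figure D5:**
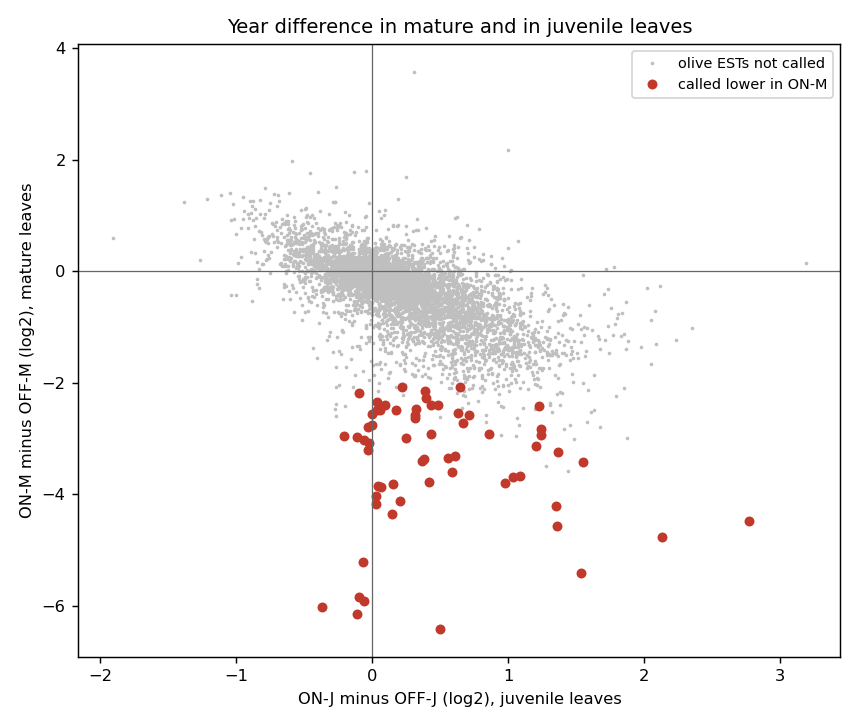
ON-M minus OFF-M (vertical axis) and ON-J minus OFF-J (horizontal axis) in log2 units for each olive EST, with the ESTs called lower in ON-M in red. The grey cloud slopes downward (r = -0.59), and the called ESTs lie between -0.36 and 2.77 on the juvenile axis.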

How the data were processed

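RNA was extracted with a plant RNA kit, and cDNA made from it was labelled with Cy3 and hybridised to a NimbleGen array. Scans were quantified by the authors in DEVA. After background subtraction came quantile normalization and the RMA summary (its version is not given in the sources used here), and the authors deposited log2 values for each array, with 3 spots per olive probe set. These were used as deposited. The averaged log2 table of the series held the array means. The 1 random control set was left out of the tests.

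One mean per group was fitted to the 11 arrays and 54615 probe sets with limma 3.58.1 in R 4.3.3 (5 residual and 3.67 prior degrees of freedom, two-sided tests). Python 3.11.15, pandas 2.3.3, numpy 2.4.6 and matplotlib 3.10.9 served for the rest. The fit was tested on simulated data in which every array, ON-M included, varied independently with the spread of the replicate pairs. Such data cannot show whether the real ON-M array varies in that way. The alternatives were other scalings, filters, thresholds, priors, subsets of arrays or probe sets, the methods' t-test, a replicate block and each array left out.

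Named ESTs are the 12 called with the largest differences in each direction, the 8 highest uncalled ones with an unadjusted p under 0.05, those named in the study, and up to 3 per list. A few others are named to complete a group of identical annotation or a small count, after their values were seen. Members and lists were chosen with earlier results of these data known. The lists were EST library, words of the study's GO terms, and levels on the fruit and juvenile arrays (margin of 3). A reference gene table matched 0 probe sets. The PCR values entered no fit.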

Additional observations from a re-analysis of the deposited data

Results flagged for a closer look

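The year difference was lower in mature than in juvenile leaves for 82 olive ESTs by the test of the difference itself (limma, Benjamini-Hochberg adjustment over all probe sets, adjusted p under 0.05 and a difference of at least 2), and higher for 1. After centring the counts were 33 and 8, and with olive quantile normalization 107 and 129. The values of the 12 called ESTs with the largest mature difference follow as a description, because that difference is part of the interaction. The mature less the juvenile difference was -6.92 for FL684392_1, -6.03 for FL683857_1, -5.66 for GO245805_1, -5.85 for FL683748_1, -5.75 for FL683833_1, -5.16 for GO243808_1 and -4.51 for GO245050_1, in which the juvenile difference was at most 0.50. It was -6.95 for FL683787_1, -6.90 for FL684126_1, -5.94 for FL684185_1, -7.25 for GO243710_1 and -5.56 for GO245017_1, in which the juvenile difference was at least 1.35 in the other direction. None of these juvenile differences was called, and all of the interaction values rest on the 1 ON-M array.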

How the results depend on the processing

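As deposited, 63 olive ESTs were lower in ON-M. The count was 30 after olive-median centring, 128 with the olive probe sets alone, 95 with a robust prior that follows brightness, 103 without the RF arrays, 0 by the methods' t-test after adjustment, and 27 to 103 with single arrays left out. Higher calls numbered 0 as deposited, 1 at the adjusted p alone, at a difference of at least 1, with the brightness trend removed and by the unadjusted t-test, 2 after centring, 8 with olive quantile normalization, and 0 with any array left out.

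On the centred scale 30 were lower and 2 higher. These became 63 and 0 as deposited, 59 and 8 with olive quantile normalization, 52 and 13 with olive probe sets alone, 51 and 6 with the robust prior, 54 and 17 without the RF arrays, and 0 and 0 by the adjusted t-test. Higher calls were 1 with the trend removed and at a mean level of 6 or more, and 8 by the unadjusted t-test. With single arrays left out, 8 to 54 were lower and 0 to 17 higher.

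The interaction, 82 lower and 1 higher, became 33 and 8 after centring, 30 and 2 with the trend removed, 275 and 8 at a mean level of 6 or more, 571 and 14 with olive probe sets alone, 366 and 9 with the robust prior and 432 and 12 without the RF arrays. Higher calls were 0 with the leaf arrays alone and 129, beside 107 lower, with olive quantile normalization. Centred leaf arrays alone gave 100 lower and 221 higher. With single arrays left out, 18 to 432 were lower and 0 to 12 higher.

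The array numbers give only an order, and same-numbered arrays did not deviate together (correlations of -0.25 to 0.19). With the replicate block, 56 were lower as deposited, 23 lower and 0 higher after centring, and 30 lower and 0 higher in the interaction. For the 63 called ESTs, 1031 of the values under alternatives kept the call and 292 lost it, with no change of sign. For 24 named ESTs that were not called, 46 values became calls and 6 changed sign: GO243351_1 to 0.30, GO243651_1 to 0.22 and FL684399_1 to 0.29 after centring, FL684399_1 to 0.0718 with the trend removed, and FL684399_1 to 0.31 and FL683585_1 to 0.0405 with quantile normalization. The median over olive ESTs became 0.44 after centring. The cause of these shifts was not tested. Signal over background limits values near 5.2.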

Other observations

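Among the poplar probe sets, the on-year array was called lower for 6 and higher for 16, whereas the olive probe sets gave 63 lower and 0 higher by the same test (limma). At an unadjusted p under 0.05 and a difference of at least 2, limma gave 143 olive ESTs lower and 2 higher. The methods' t-test at the same limits gave 88 lower and 1 higher. Without the limit on size, 1332 olive ESTs had an unadjusted p under 0.05 by limma, of which 109 were higher. Over all probe sets the median difference was 0.04 and over the olive ones -0.26. In all, 887 olive ESTs were lower in ON-M by at least 1 on the log2 scale and 51 were higher by that much.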
